A study of Mus musculus with 4 samples.

Results

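Chemokines are small secreted proteins that attract leukocytes, and they are grouped by the spacing of their first cysteines into CC, CXC and CX3C classes. The genes described here are 10 chemokine ligands of the mouse: the CC chemokines Ccl2, Ccl7, Ccl5 and Ccl20, the CXC chemokines Cxcl1, Cxcl2, Cxcl5, Cxcl10 and Cxcl12, and Cx3cl1, which belongs to neither class but is the CX3C chemokine. They were taken by name, and every probe set whose annotation gives only that symbol was used, which gave 13 of the 22626 probe sets on the array that are not controls. The names were listed with earlier results of the same comparison known, so the differences between the populations given for them are a description and carry no test of their own.

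RNA came from NF639, a cell line from a mammary tumour of a mouse that carried the ErbB2 (neu) oncogene, from a pooled population that resists the green tea polyphenol EGCG (epigallocatechin 3-gallate) and from the original population, with 2 Affymetrix Mouse 430A 2.0 arrays in each group. Both groups share the cell line and its oncogene. The resistant cells are a pool and not a single clone, and the labels do not state whether EGCG was present when RNA was taken or how much was used for selection. The arrays come from separate experiments per the study's design text, and the labels number them 1 and 2 in each population without saying what a number shares.

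Tumour cells commonly secrete CC chemokines such as Ccl2, which draws monocytes, and CXC chemokines with a glutamate-leucine-arginine (ELR) motif before the cysteines, such as Cxcl1 and Cxcl5, which draw neutrophils. Many of these genes are induced by cytokines through the transcription factor NF-kappaB. Cxcl10 is a chemokine for activated T cells, induced by interferons, and Cxcl12 is a stromal chemokine that keeps cells in place in bone marrow and other tissues.

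The values are MAS5 signals, which are background-adjusted intensities on a linear scale with no unit, and they ran from 0.1 to 25919.2. The median signal was 128.65 and 113.95 on the resistant arrays and 135.25 and 115.15 on the original arrays. In both populations the array numbered 2 was brighter in all 12 probe sets of the spiked controls BioB, BioC and BioDn, by 1.48 to 2.46 times in the resistant pool and 1.39 to 2.36 times in the original population. The array of original 2 also stood apart in a probe set for 18S ribosomal RNA, at 4005.3, against 346.7 and 624.3 on the resistant arrays and 362.4 on original 1. Leaving out each array in turn is reported beside the results that it alters.

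The markers of cell types gave an uneven match to the label of a breast cancer line. Of 8 luminal epithelial markers 1, Erbb2, had a mean signal above the filter of 49.1 that was used for testing, while Krt8, Krt18, Cdh1 and Epcam lay below it. Of 6 fibroblast markers 5 lay above the filter, with a summed signal of 6338.3 and 5287.8 on the resistant arrays and 7195.8 and 6064.6 on the original arrays, which overlapped. Among them Dcn had 124.9 and 37.9 on the resistant arrays and 729.1 and 136.7 on the original arrays, and Col1a2 had 2427.3 and 3228.5 on the resistant arrays and 4171.7 and 4416 on the original arrays, both without overlap. Col1a1 lay the other way, with 277.3 and 412.1 on the resistant arrays and 172.5 and 164.4 on the original arrays. Pdgfra had 966 and 270.4 on the resistant arrays and 489.9 and 196 on the original arrays. For Pdgfrb the signals were 2524.2 and 1333.1 on the resistant arrays and 1617.7 and 1131.2 on the original arrays. Both overlapped, and each was higher on the resistant array than on the original array of the same number. Of these markers 0 were called. Of 9 leukocyte markers with a probe set 5 lay above it, but Ptprc, the pan-leukocyte marker CD45, had signals of 12 and 7.4 on the resistant arrays and 8.6 and 14.8 on the original arrays. The summed leukocyte signal was 655.1 and 600.3 on the resistant arrays and 792.4 and 555.4 on the original arrays, and the groups overlapped. None of the 5 endothelial markers lay above the filter, and their summed signal was 53.2 and 46.7 on the resistant arrays and 41.4 and 70.5 on the original arrays. None of the 4 basal epithelial markers lay above it either, but their summed signal did not overlap, at 133.1 and 218 on the resistant arrays and 69.4 and 102 on the original arrays, and 3 of the 4 were higher in the resistant pool without overlap. The part of these markers in the differences between the populations below was not tested.

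To show what the regulatory sequence of these genes holds, the promoters of Cxcl1, Cxcl2 and Cxcl10 are printed first. Cxcl1 was lower on both resistant arrays, Cxcl2 is its close relative with dim signals, and Cxcl10 is the interferon-induced member. The sequences are RefSeq's on GRCm38.p6, from 250 bases before to 50 bases after the start site, 5′ to 3′ on the gene's strand. Of the 10 genes 6 matched the promoter table. The others, Ccl2, Ccl7, Ccl5 and Cxcl5, include both genes called below, and their promoters were not scanned. Capitals mark matches on either strand to the NF-kappaB consensus, to the interferon-stimulated response element GAAANNGAAA or to the AP-1 motif TGANTCA.
Cxcl1, chr5:90890995-90891294, plus strand: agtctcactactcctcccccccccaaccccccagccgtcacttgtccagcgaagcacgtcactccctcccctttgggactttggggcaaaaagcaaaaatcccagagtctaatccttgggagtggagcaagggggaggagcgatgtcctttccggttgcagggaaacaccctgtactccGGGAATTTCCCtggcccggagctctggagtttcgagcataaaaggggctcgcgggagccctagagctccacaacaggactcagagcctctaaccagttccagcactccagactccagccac
Cxcl2, chr5:90903649-90903948, plus strand: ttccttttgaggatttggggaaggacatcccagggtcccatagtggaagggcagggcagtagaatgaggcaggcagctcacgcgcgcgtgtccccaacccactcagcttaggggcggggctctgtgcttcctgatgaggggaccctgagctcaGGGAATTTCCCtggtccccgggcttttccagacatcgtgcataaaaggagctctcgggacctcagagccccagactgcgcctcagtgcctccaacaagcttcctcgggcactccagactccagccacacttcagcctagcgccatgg
Cxcl10, chr5:92348840-92349139, minus strand: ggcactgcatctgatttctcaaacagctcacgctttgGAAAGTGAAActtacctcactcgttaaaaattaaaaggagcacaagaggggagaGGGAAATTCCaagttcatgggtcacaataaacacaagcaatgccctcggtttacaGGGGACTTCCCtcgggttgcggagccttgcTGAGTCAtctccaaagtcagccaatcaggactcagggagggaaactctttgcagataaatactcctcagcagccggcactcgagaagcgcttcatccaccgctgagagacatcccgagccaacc

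The Cxcl1 and Cxcl2 promoters held the same 11 letters, in which matches on both strands overlap, at -71 to -61 from the start site in Cxcl1 and at -97 to -87 in Cxcl2. The Cxcl10 promoter held the interferon-stimulated response element at -213 to -204, NF-kappaB matches at -159 to -150 and, overlapping each other, at -104 to -94, and an AP-1 match at -74 to -68. Ccl20 held 1 NF-kappaB match, and the windows of Cxcl12 and Cx3cl1 held none of the motifs. Over all 32851 promoters of that length 8.46% held the NF-kappaB consensus, 3.44% the interferon-stimulated response element and 7.81% the AP-1 motif. These matches are letters in a window and do not show that a factor bound there.

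Of the 10 genes, 6 had a probe set above the filter: Ccl2, Ccl7, Cxcl1, Cxcl5, Cxcl10 and Cx3cl1, with 7 of the 13 probe sets. For each of these, log2(signal + 3) was compared as resistant minus original in a limma fit over all 13576 probe sets above the filter, and a probe set was called at a Benjamini-Hochberg adjusted p under 0.05 over all of them. Ccl2 and Ccl7 were called, both lower in the resistant pool, beside 0.133% of the 7510 genes tested that were called lower. In Ccl2, Ccl7, Cxcl1 and Cxcl5 both resistant arrays lay below both original arrays, beside 17.4% of the genes tested. The median log2 difference of the 6 genes was -0.925, beside 0.02 over all genes tested. Because the names were listed with this comparison known, nothing is read from these counts. With 2 arrays a group an exact two-sided permutation test of a single gene cannot give a p below 0.333. As in any RNA from a whole culture, fewer cells making a transcript and less transcript per cell cannot be told apart.

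**Figure D1:**
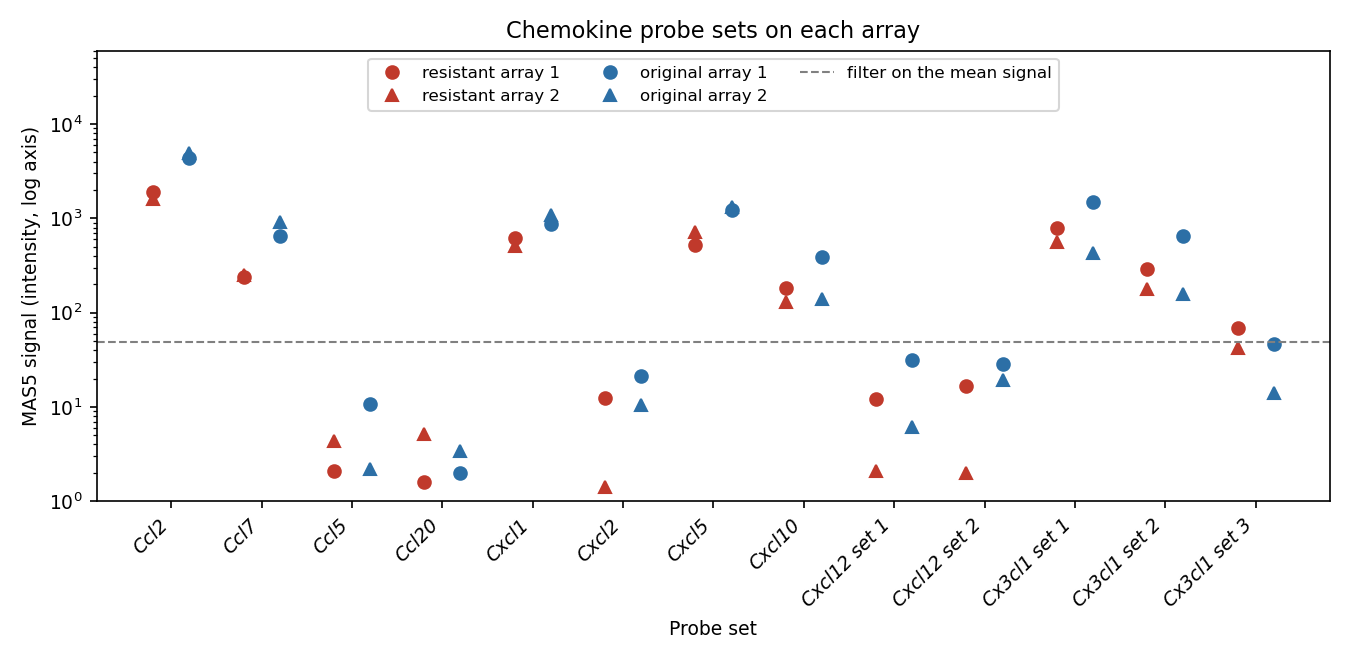
Signals of the 13 chemokine probe sets on each array, with the MAS5 signal on a log axis, resistant arrays in red left of original arrays in blue, circles for the arrays numbered 1 and triangles for those numbered 2. Ccl2, Ccl7, Cxcl1 and Cxcl5 sit well above the dashed filter at 49.1 with resistant below original, and Ccl5, Ccl20, Cxcl2 and Cxcl12 sit below it.

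Ccl2, the monocyte chemoattractant that signals through Ccr2, had signals of 1910.3 and 1597.3 on the resistant arrays and 4329.8 and 4907 on the original arrays. Both resistant values lay under both original ones, and the lower original array was 2.27 times the higher resistant array. The means were 1754 ± 221 in the resistant pool and 4618 ± 408 in the original population (SD, n = 2 each), which puts the resistant pool at 38.0% of the original population. On the log2 scale Ccl2 fell by 1.40 ± 0.172 (SE). The difference was -1.18 between the arrays numbered 1 and -1.62 between those numbered 2. It ran from -1.53 to -1.27 when each array was left out in turn.

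Ccl7, a monocyte chemoattractant that binds Ccr1, Ccr2 and Ccr3, had signals of 241.5 and 252.6 on the resistant arrays and 644.4 and 909.9 on the original arrays. The resistant arrays lay close together, and the original ones were at least 2.55 times as bright. The means were 247 ± 7.85 in the resistant pool and 777.2 ± 188 in the original population (SD, n = 2 each), or 31.8% of the original population. Ccl7 fell by 1.62 ± 0.233 (SE) on the log2 scale. Its difference was -1.41 between the arrays numbered 1 and -1.84 between those numbered 2, and it ran from -1.87 to -1.37 with 1 array left out. Neither gene was called when dim probe sets were kept in the fit or when limma had no variance trend, and Ccl7 was not called under quantile normalisation either.

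Ccl2 and Ccl7 are neighbours on chromosome 11 in the gene table of GRCm38.p6, followed by Ccl11, Ccl12, Ccl8 and Ccl1. The next 4 genes of that run had probe sets that all lay below the filter, so no difference was tested for them. Ccl8 had signals of 26.5 and 33.1 on the resistant arrays and 49.8 and 30.4 on the original arrays. Ccl12, a second mouse ligand of Ccr2, had 6.1 and 3.7 on the resistant arrays and 2.9 and 2.6 on the original arrays. Within this run the genes whose mean signal passed the filter were therefore Ccl2 and Ccl7.

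Of the remaining CC genes, Ccl5, which draws T cells and monocytes, had signals of 2.1 and 4.3 on the resistant arrays and 10.7 and 2.2 on the original arrays. Ccl20, the ligand of Ccr6, had 1.6 and 5.2 on the resistant arrays and 2 and 3.4 on the original arrays. Both genes were dim on all arrays, the groups overlapped, and a fold between such signals is not given.

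Cxcl1, an ELR chemokine that draws neutrophils through Cxcr2, had signals of 621.2 and 506.8 on the resistant arrays and 872.4 and 1091.6 on the original arrays. The groups did not overlap, and the lower original array was 1.40 times the higher resistant array. The means were 564 ± 80.9 in the resistant pool and 982 ± 155 in the original population (SD, n = 2 each). The log2 difference was -0.80 ± 0.204 (SE), and the gene was not called. With the array number as a term of the fit it was called lower, as were 3.06% of all genes. It was -0.49 between the arrays numbered 1 and -1.10 between those numbered 2.

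Cxcl5, another ELR chemokine of neutrophils, had signals of 518.5 and 719.3 on the resistant arrays and 1222.9 and 1319.1 on the original arrays. The original arrays lay closer together than the resistant ones, and the groups did not overlap. The means were 618.9 ± 142 in the resistant pool and 1271 ± 68.0 in the original population (SD, n = 2 each), which is 48.7% of the original population. The log2 difference was -1.05 ± 0.205 (SE), and the gene was not called. It was -1.23 between the arrays numbered 1 and -0.87 between those numbered 2. With each array left out in turn it ran from -1.29 to -0.82. Cxcl5 was called lower with the array number as a term, as were 3.06% of all genes.

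Cxcl2, the third ELR gene and the neighbour of Cxcl1 whose promoter is printed above, was dim, with signals of 12.5 and 1.4 on the resistant arrays and 21.3 and 10.5 on the original arrays, and the groups overlapped. In the gene table Cxcl5, Ppbp, Pf4, Cxcl3, Cxcl15, Cxcl1 and Cxcl2 follow each other on chromosome 5. Ppbp, Pf4 and Cxcl15 lay below the filter, and Cxcl3 was not analysed here. Cxcl15, a chemokine of lung, had 16.9 and 21 on the resistant arrays and 8.9 and 6.7 on the original arrays. Pf4, a chemokine of platelets, had signals of 20.1 and 22.7 on the resistant arrays and 52.4 and 50.7 on the original arrays. Ppbp, also of platelets, had 32.4 and 38 on the resistant arrays and 47.8 and 58.2 on the original arrays. Without overlap between the groups, Cxcl15 was higher and Pf4 and Ppbp were lower on the resistant arrays, all at signals too dim to test.

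**Figure D2:**
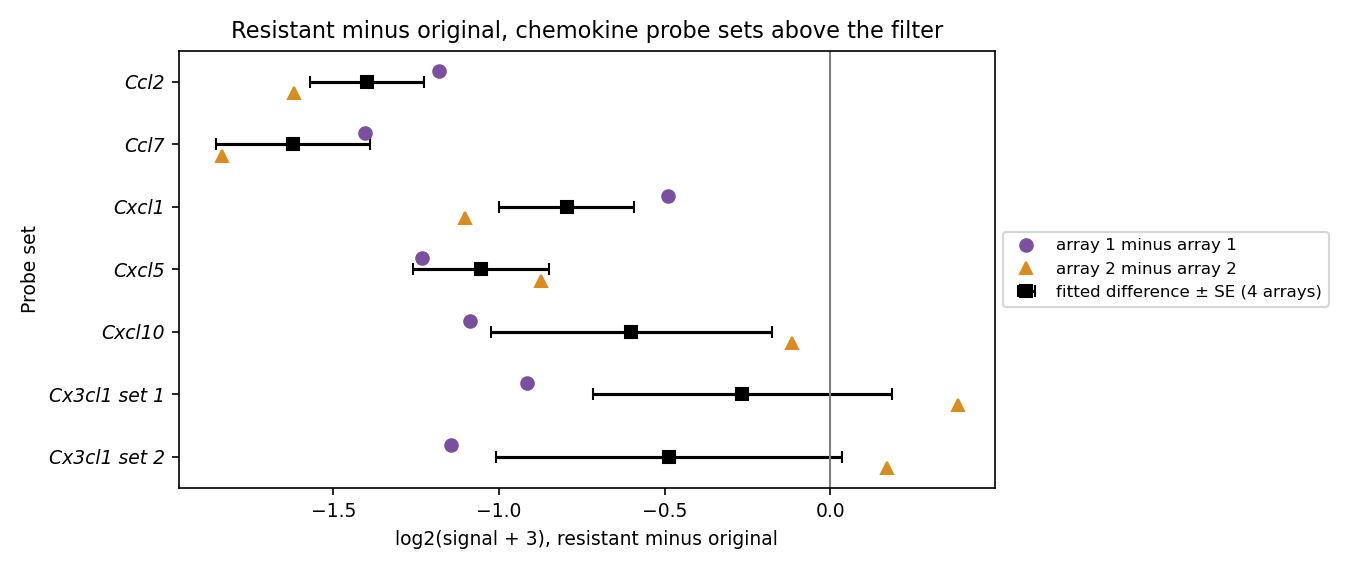
Difference of log2(signal + 3), resistant minus original, for the 7 chemokine probe sets above the filter, with the fitted value and its SE as black squares and the differences between arrays of the same number as circles (1) and triangles (2). Both same-number differences lie below 0 for Ccl2, Ccl7, Cxcl1 and Cxcl5, and also for Cxcl10, while they straddle 0 for both probe sets of Cx3cl1.

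Cxcl10 and Cx3cl1 differed from these genes in that the original arrays lay far apart. Cxcl10, which binds Cxcr3 on activated T cells, had signals of 181.1 and 130.2 on the resistant arrays and 388 and 141.1 on the original arrays. Original 1 was the highest array, and original 2 lay between the resistant arrays. The means were 155.6 ± 36.0 in the resistant pool and 264.6 ± 175 in the original population (SD, n = 2 each), and the log2 difference was -0.60 ± 0.424 (SE), not called. Without original 1 the difference was 0.12, and without original 2 it was -1.32, so the direction rested on original 1.

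Cx3cl1, or fractalkine, is made as a membrane-bound adhesion molecule and shed as a soluble attractant for cells with Cx3cr1. It had 3 probe sets. The brightest had signals of 790.9 and 555.6 on the resistant arrays and 1493.8 and 424.5 on the original arrays, and the next had 293.2 and 179.9 on the resistant arrays and 651.5 and 159.3 on the original arrays. In both, original 1 was highest and original 2 was lowest, so the resistant arrays lay between the original ones. The log2 differences were -0.27 ± 0.451 and -0.49 ± 0.524 (SE), and neither was called. The brightest probe set gave 0.64 without original 1 and -1.17 without original 2. The dimmest probe set, below the filter, had the higher mean in the resistant pool, with 68.6 and 42.2 on the resistant arrays and 46.9 and 14.2 on the original arrays, and its groups overlapped as well.

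In all 3 probe sets of Cx3cl1 original 1 was brighter than original 2, by 3.52 and 4.09 times in those above the filter. For Cxcl10 the ratio was 2.75. Among the genes tested, 0.799% differed more between the original arrays than Cxcl10 and 0.386% more than the brightest probe set of Cx3cl1. Resistant 1 was also brighter than resistant 2 for both genes, with log2 differences of resistant 2 minus resistant 1 of -0.47 for Cxcl10 and -0.51 for the brightest probe set of Cx3cl1. Ccl2, Ccl7, Cxcl1 and Cxcl5 were brighter on original 2 than on original 1, by 1.13, 1.41, 1.25 and 1.08 times. Of the genes tested, 16.0% differed more between the original arrays than Ccl7, and larger shares differed more than Ccl2, Cxcl1 and Cxcl5. What sets the original arrays apart from each other for Cxcl10 and Cx3cl1 was not tested.

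**Figure D3:**
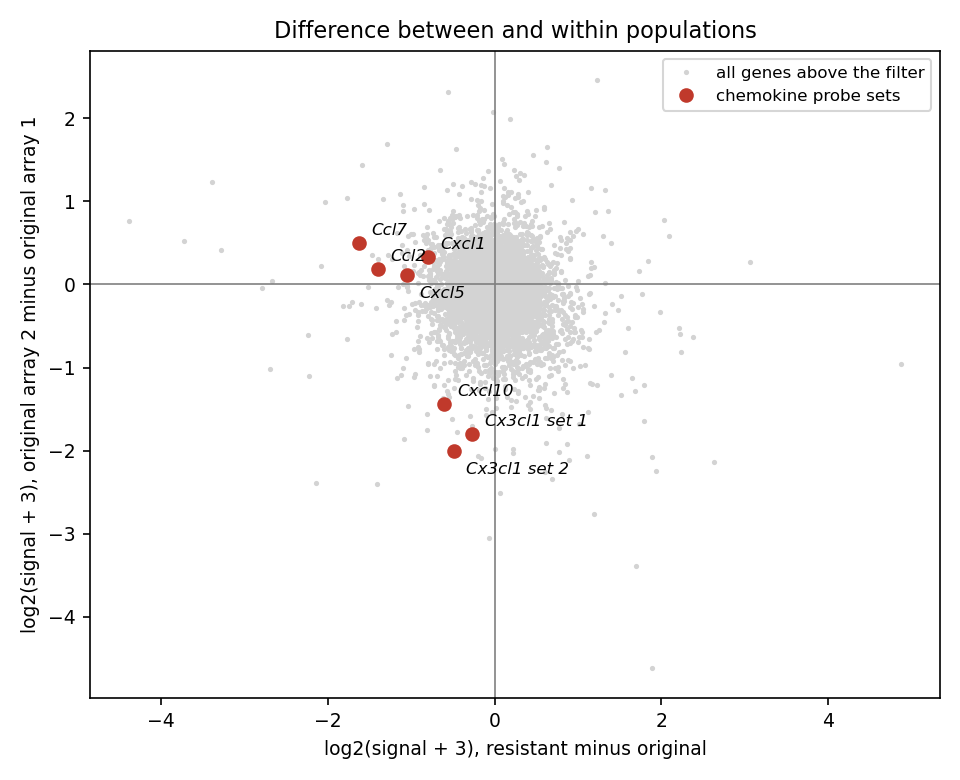
Log2 difference between the populations (resistant minus original, horizontal) against the difference within the original population (array 2 minus array 1, vertical), with all genes above the filter in grey and the 7 chemokine probe sets in red. Ccl2, Ccl7, Cxcl1 and Cxcl5 lie left with vertical values from 0.11 (Cxcl5) to 0.50 (Ccl7), while Cxcl10 and the Cx3cl1 probe sets lie below -1.4 on the vertical axis.

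Cxcl12, the ligand of Cxcr4 and of the scavenging receptor Ackr3, had 2 probe sets, both below the filter. One had signals of 12 and 2.1 on the resistant arrays and 31.7 and 6.1 on the original arrays, and the other had 16.7 and 2 on the resistant arrays and 28.7 and 19.1 on the original arrays. The first overlapped between the groups and the second did not, and no fold is given at these signals.

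The receptors of these ligands were almost all dim in both populations. Of 24 chemokine receptor genes 22 had a probe set, and 2, Ackr3 and Cxcr6, lay above the filter. Ackr3, which binds and removes Cxcl12, had signals of 1869.8 and 1906.8 on the resistant arrays and 1886.8 and 1827.3 on the original arrays. These overlapped, with a log2 difference of 0.02 ± 0.161 (SE). Cxcr4, the signalling receptor of Cxcl12, had 0.6 and 16.7 on the resistant arrays and 11.8 and 1.8 on the original arrays. Cxcr2, the receptor of Cxcl1, Cxcl2 and Cxcl5, had 1.5 and 7.2 on the resistant arrays and 14.9 and 7.3 on the original arrays. The 3 probe sets of Ccr2 ran from 1 to 17.3 on the resistant arrays and from 1.4 to 26.8 on the original arrays. Ccr1, Ccr3, Ccr6, Cxcr3, Ackr2 (a scavenger of CC chemokines) and Cx3cr1 also lay below the filter, with no signal above 57.8, that of Cxcr3 on original 1. Ackr1, an atypical receptor that binds many CC and CXC chemokines, also lay below the filter by its mean, with 42.3 and 31.2 on the resistant arrays and 79 and 54.7 on the original arrays, which did not overlap.

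Of 31 other chemokine ligands 24 had a probe set and 4 lay above the filter, so 20 were too dim to test. Among these, the brighter probe set of Cxcl14 had 42.6 and 66.1 on the resistant arrays and 13.2 and 3.7 on the original arrays, without overlap. The dimmer probe set of Cxcl14 was not higher in the resistant pool, with 1.6 and 11.4 on the resistant arrays and 11.4 and 12.5 on the original arrays. Dim ligands without overlap lay in both directions. Both probe sets of Ccl6 were lower in the resistant pool without overlap. One had 5.1 and 4.6 on the resistant arrays and 8.8 and 29.8 on the original arrays. The other had 1.9 and 15 on the resistant arrays and 28.9 and 21.8 on the original arrays. With limma and Benjamini-Hochberg adjustment over all probe sets, 0 of these 4 ligands and 0 of the 2 receptors were called, beside 0.226% of all genes. At an unadjusted p under 0.05 there were likewise 0 ligands and 0 receptors, also without a variance trend, beside 7.87% of all genes in the fit with the trend. With 6 genes tested these counts say little about the lists. The median log2 difference of the 4 ligands was -0.38, with 3 fitted below 0. Ccl4, a CC chemokine, was the only one of the 4 whose arrays did not overlap, with 56.2 and 47.6 on the resistant arrays and 71.4 and 58 on the original arrays. Its log2 difference was -0.30 ± 0.401 (SE; limma adjusted p = 0.954). Ccl9, a mouse CC chemokine that binds Ccr1, had signals of 1655.5 and 4598.6 on the resistant arrays and 3209.3 and 4531.3 on the original arrays. Resistant 1 was the lowest array and resistant 2 the highest, with a log2 difference of -0.47 ± 0.377 (SE; limma adjusted p = 0.883). Resistant 1 was also lowest in its second probe set, with 1146.2 and 3142.3 on the resistant arrays and 2462.1 and 3196.8 on the original arrays. Ccl9 was called lower with the array number as a term of the fit, as were 3.06% of all genes. The other 2 ligands tested were Ccl25, at 0.16, and Cxcl16, at -0.66 on the log2 scale.

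Of 32 inducers of chemokines, their receptors and the transcription factors behind them, 21 were tested and 0 were called with limma, while 1 had an unadjusted p under 0.05 and 1 was called lower with the array number as a term. Over all genes 7.87% had an unadjusted limma p under 0.05, and 3.06% were called lower with that term. With 1 gene in each count, nothing is read from a comparison with these shares. In both counts the gene was Nfkb2, the p100/p52 subunit of NF-kappaB and itself induced by it. Nfkb2 had signals of 430.1 and 399.5 on the resistant arrays and 1065.3 and 621.1 on the original arrays, which did not overlap. Its log2 difference was -0.97 ± 0.256 (SE; limma adjusted p = 0.298), and it was -1.36 without original 2 and -0.58 without original 1. The dimmer probe set of Nfkb2 had 211.7 and 239.7 on the resistant arrays and 389.3 and 252.4 on the original arrays. Its difference was smaller, at -0.47 ± 0.275 (SE; limma adjusted p = 0.794). Rela, the main transactivating subunit, had a difference of -0.11 ± 0.169 (SE), with 1139.2 and 1216.5 on the resistant arrays and 1296.7 and 1235.9 on the original arrays. Myd88, the adaptor of Toll-like and interleukin-1 receptors, was at 0.24 ± 0.205 (SE), and Jun, a subunit of AP-1, at 0.09 ± 0.164 (SE). The median over the 21 genes was -0.04, with 10 fitted above 0 and 11 below. Tnf, Il1a, Il1b and Il6, cytokines that induce chemokines, lay below the filter. Tnf had 5.6 and 6 on the resistant arrays and 6.4 and 3.1 on the original arrays.

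Of 15 proteases and proteoglycans that cut or hold chemokines 10 were tested and 0 were called with limma, while 2 had an unadjusted p under 0.05 and 1, Ctsd, was called higher with the array number as a term. Over all genes the share with such a p was 7.87%, and 5.77% were called in either direction with that term. The median was 0.13, with 7 fitted above 0. Ctsd, the lysosomal protease cathepsin D, had signals of 3520.9 and 3756.3 on the resistant arrays and 2745.8 and 1667.2 on the original arrays. Its log2 difference was 0.76 ± 0.224 (SE, limma adjusted p = 0.369), and it was 1.12 without original 1 and 0.41 without original 2. Sdc1, a heparan sulfate proteoglycan of the cell surface, was at 0.45 ± 0.196 (SE), and all 4 of its probe sets had resistant above original on every array. Ctsb, another lysosomal protease, was at 0.37 ± 0.199 (SE). Without original 2 the differences of Sdc1 and Ctsb were 0.20 and 0.10, and without original 1 they were 0.71 and 0.63. Adam10 and Adam17, the proteases that shed Cx3cl1, were at -0.22 ± 0.205 and -0.25 ± 0.253 (SE) in their brightest probe sets, whose arrays overlapped. Their other probe sets were at -0.51 and -0.50 for Adam10, the first without overlap, and at -0.63 and -0.47 for Adam17, and 0 of these were called.

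**Figure D4:**
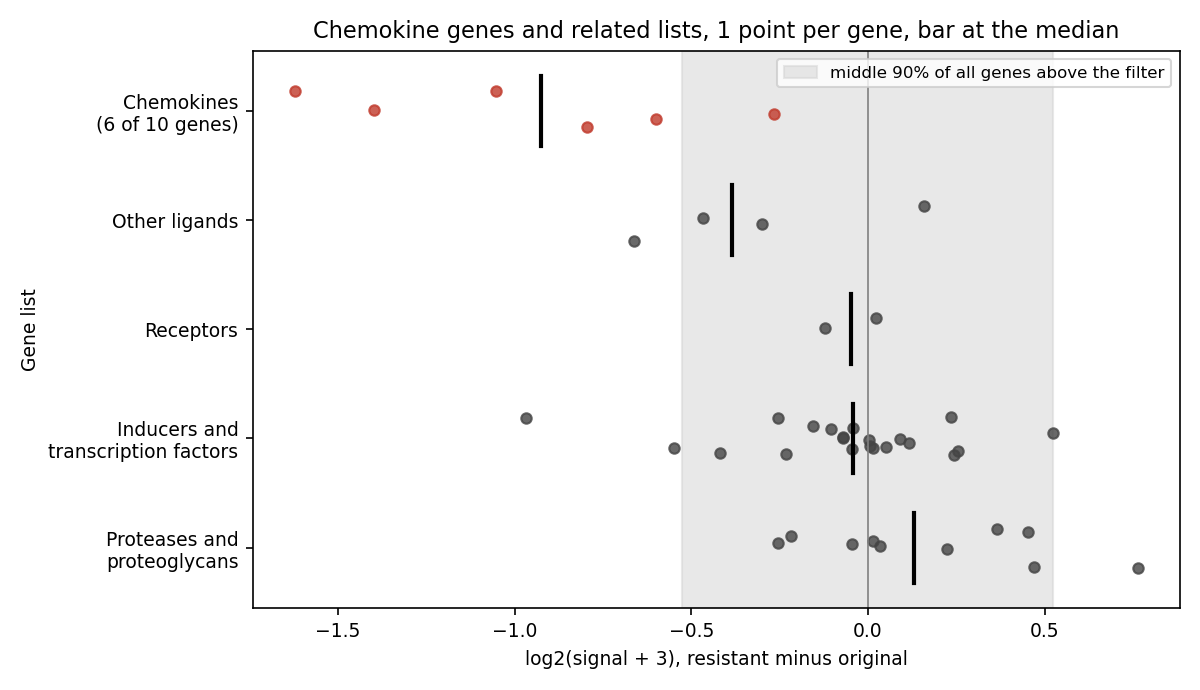
Log2 difference, resistant minus original, of the genes above the filter in the described chemokines (red) and in the related lists (dark grey), 1 point per gene with a bar at the list's median. Of the 6 described chemokines 5 lie left of the shaded band, which holds the middle 90% of all genes and runs from -0.53 to 0.52, and the receptors lie near 0.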

How the data were processed

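The authors deposited 1 table of MAS5 signal intensities on a linear scale, per the submitters' processing notes, which give no version. In these intensities the trimmed mean without the top and bottom 2% was 496.8 to 497.8 on each array, so a global difference in RNA content would have been scaled away. Detection calls were not used here. Of the 22626 probe sets that are not controls, 20380 had 1 gene symbol in the platform annotation, 691 several and 1555 none here; 20351 of the first matched the GRCm38.p6 gene table by identifier.

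Signals were scaled to a common trimmed mean, and log2(signal + 3) was taken, 3 being the rounded 10th percentile. Changes of dim genes are understated on this scale. The filter kept the 13576 probe sets with a mean log2 signal at or above the 40th percentile, equal to a signal of 49.1. Resistant minus original was fitted on the 4 arrays with limma 3.58.1 under R 4.3.3 (lmFit, eBayes with a variance trend, Benjamini-Hochberg, 8.3 prior degrees of freedom). A gene took its retained probe set of highest mean. The p-values measure the spread between these arrays, with the variance of each probe set drawn toward that of probe sets of like signal. The procedure was tested on simulated data. Their noise was independent between arrays, followed the fitted variance model and held no effect of array number. The simulation therefore does not show how the procedure behaves where the real arrays depart from this.

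The 10 genes and the related lists were chosen with earlier results of these data known. Within a list, genes were named if called or if among the 4 largest differences without overlap. Also named were 10 receptors of the ligands that were listed and had a probe set. Ackr1, the single fibroblast markers, Ccl6, Ccl8, Ccl9, Ccl12, Ccl25, Cxcl14, Cxcl15, Cxcl16, Pf4, Ppbp, Tnf, Adam10 and Adam17 were named after their values were seen. Alternatives varied the pseudocount, filter, scaling, variance model, array number as a term, arrays and probe set choice. Promoters were scanned on both strands, credited to RefSeq on GRCm38.p6.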

Additional observations from a re-analysis of the deposited data

How the results depend on the processing

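In Ccl2, Ccl7, Cxcl1 and Cxcl5 both resistant arrays lay below both original arrays, so leaving out an array could not change the sign. The filters, the variance trend, the array number as a term and the probe set choice left their differences as they were. That these differences were below 0 in all 14 alternatives therefore adds little. Ccl2 was called in 12 of them and Ccl7 in 11. Of the chemokines described, 0 were called without the filter on dim probe sets and 0 without a variance trend, 1 (Ccl2) under quantile normalisation and 2 to 3 with 1 array left out. Over the whole array 23 probe sets were called, against 5 without the filter, 10 with a filter at the 60th percentile, 8 under quantile normalisation, 0 without a variance trend (922 at an unadjusted p under 0.05) and 68 to 111 with 1 array left out. The fits with 1 array left out assume that a lone array varies like the other group. A filter on the plain mean of the signals, chosen after seeing the data, gave 31. Among the other ligands and receptors 0 to 1 were called with 1 array left out. The labels do not say whether the array numbers pair the cultures. The difference of array 2 minus array 1 correlated at 0.35 between the populations over 13576 probe sets. In both populations the spiked controls were brighter on the array numbered 2. The main fit has no term for the number, and what arrays of the same number share was not tested. With the number as a replicate block 710 probe sets were called and 4 of the chemokines described (Ccl2, Ccl7, Cxcl1 and Cxcl5), beside 3.06% of genes called lower, and 1 other ligand, Ccl9. The cause of these changes in the counts was not tested. The number of arrays, 2 in each population, limits the precision, and dim probe sets have large relative errors.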
